A study of Mus musculus with 5 samples.

Results

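The 42 interferon-stimulated and class I antigen presentation genes described here are a list of gene symbols, read from a table of 54232 genes measured by RNA sequencing in differentiated mouse myoblasts. All 42 symbols were found once, through the Ensembl identifiers of GENCODE release M21, and the rule uses gene names and no measured value. Primary myoblasts, the precursors of muscle fibres, were isolated from leg muscle and kept in low-serum differentiation medium for 72 h. WT myoblasts (n = 3) were compared with Elmo2EID/EID myoblasts (n = 2), in which both alleles of Elmo2 carry a knock-in that opens the conformation of the ELMO2 scaffold protein. The knock-in is present in every tissue of the mice, the mice were on a mixed C57BL6 and 129SV background, and the protocols name no interferon treatment for either group. The cells were enriched with magnetic beads for satellite cells and for integrin alpha 7, and mice of 6 to 8 weeks are given as the source of primary myoblasts. The study's methods describe primary cells as usually taken from 3 separate mice, but the labels do not tie each of these samples to an animal, so the p-values below measure the spread between these samples, which may be technical.

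Interferons are secreted proteins that cells release when they sense viral nucleic acid. Type I interferon binds a receptor that acts through the kinases JAK1 and TYK2, and a transcription factor complex that contains STAT2 and IRF9 then binds the interferon-stimulated response element (ISRE) in the promoters of many genes. Type II interferon acts on the gamma-activated site (GAS) and raises, among others, the genes that load peptides on class I molecules. Resting muscle cells keep most of these genes low, while B2m and the class I heavy chains have a basal level in nearly all nucleated cells.

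The response elements of these genes are shown first, because they are the sequences through which interferon acts, although some members held no match. Promoters spanning 250 bases before and 50 bases from the start of transcription were taken from RefSeq on GRCm38.p6, and 33 of the 42 genes had one. Both strands were searched for the core of the ISRE, a direct repeat whose matched bases can be read from the capitals below, and for the palindromic GAS, TTCNNNGAA. Of the 33, 11 held neither motif. Only exact matches inside this window were counted, so an element with a mismatch or outside the window would be missed. An ISRE match was present in 18 of the 33 genes (54.5%) against 3.99% of all 27025 genes with a promoter in the table, and a GAS match in 9 (27.3%) against 9.55%. The 2 motifs can overlap, and 5 of the 33 genes held both. The stretches below run 5′ to 3′ on the strand of the gene, with the bases of ISRE matches in capitals. The GAS matches inside the stretches of Bst2 and Ifitm3, which overlap their ISRE matches, are not marked.
Isg15, minus strand of chr4:156200867-156200904, with 3 overlapping ISRE matches: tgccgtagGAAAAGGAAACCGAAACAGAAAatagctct
Ifit1, plus strand of chr19:34640777-34640821, with 2 ISRE matches: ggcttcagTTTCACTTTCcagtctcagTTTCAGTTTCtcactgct
Ifit3, plus strand of chr19:34583365-34583424, with 2 ISRE matches: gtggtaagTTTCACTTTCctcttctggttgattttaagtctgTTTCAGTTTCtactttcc
Rsad2, minus strand of chr12:26456555-26456580: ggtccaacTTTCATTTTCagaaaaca
Gbp3, plus strand of chr3:142559991-142560022, with 2 overlapping ISRE matches: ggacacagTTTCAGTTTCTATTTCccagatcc
Bst2, minus strand of chr8:71537579-71537610, with 2 overlapping ISRE matches and 1 GAS match: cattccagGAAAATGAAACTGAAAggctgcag
B2m, plus strand of chr2:122147540-122147565: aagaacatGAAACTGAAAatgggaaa
Ifitm3, minus strand of chr7:141010716-141010742, from the third base of the transcript on, with 2 ISRE matches and 1 GAS match: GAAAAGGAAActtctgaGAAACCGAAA
Ifit3b, the near-copy of Ifit3, had the same 60 bases at chr19:34607761-34607820. Isg15, Ifit1 and Rsad2 were chosen as textbook members of the response, Gbp3 and Bst2 as members without overlap between the groups in opposite directions, B2m as the highest of the list, and Ifitm3 as the gene that passed the test. Tap1, which had the next smallest p-value, had no match to either motif, and its 250 bases before the start on the plus strand of chr17:34187306-34187555 were as follows.
Tap1: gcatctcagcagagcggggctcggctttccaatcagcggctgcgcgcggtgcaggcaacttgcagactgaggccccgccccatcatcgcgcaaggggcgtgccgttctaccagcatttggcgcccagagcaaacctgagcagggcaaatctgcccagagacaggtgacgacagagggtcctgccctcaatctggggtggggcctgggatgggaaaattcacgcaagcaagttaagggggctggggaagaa
This stretch also holds the start of Psmb9, which is read in the other direction and begins 226 bases from that of Tap1. The 16 tested genes with an ISRE match had a median log2 fold change of -0.04 (6 higher and 10 lower in Elmo2EID/EID), and the 13 tested genes with a promoter but no match had a median of -0.13 (5 higher and 8 lower).

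Values are given as normalized counts, reads per gene divided by a size factor for each sample. The samples held between 35021856 and 49381544 reads, and 3 reads, taken as the floor, correspond to 2.65 to 3.73 normalized counts. Fold changes put Elmo2EID/EID over WT, as differences of log2(normalized count + 1), a scale on which low genes appear to change less than they do. Limma was fitted to the 18156 genes that reached 5 normalized counts in any sample, and p-values were adjusted over all of them by the Benjamini-Hochberg method. Of the 42 genes, 35 were tested. Oasl2, Mx2 and Psmb8 reached the minimum in WT samples alone, so for these 3 the filter leans towards a lower level in Elmo2EID/EID. The 7 untested genes were Usp18, Ifit3b, Oas1a, Oas2, Mx1, Ifi44 and Psmb9. All of these but Ifit3b were at or under 3 reads in every sample, and Oas2 had no read in any.

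The cells carried the transcripts of differentiated muscle, and none of the 7 interferon genes looked up exceeded a single read. The 10 muscle markers, among them Myog, Ckm and Acta1, summed to between 1639197 and 1858975 normalized counts in WT and between 1541569 and 1767391 in Elmo2EID/EID. Of the other cell types that such a preparation can hold, 12 endothelial markers summed to 695 to 2081 in WT and to 3887 to 5821 in Elmo2EID/EID, and for 11 of the 12 both Elmo2EID/EID samples lay above every WT sample, against 16.7% of all genes tested. Macrophage markers (11 genes) summed to 92.8 to 116.7 in WT, to 265.6 in Elmo2EID/EID replicate 1 and to 95.9 in replicate 2, with Ptprc and Aif1 at or under 3 reads throughout. Of the 9 macrophage markers tested, 8 were higher in the mutant by their fold change and 1 lower, with a median of 0.83. Of these 9, 3 reached the minimum for testing in Elmo2EID/EID alone. Lymphocyte markers (8 genes) summed to between 5.61 and 13.3 in all samples, with 4 of the 8 at 0. Fibro-adipogenic progenitor markers (9 genes) summed to 7726 to 10822 in WT and 4749 to 6116 in Elmo2EID/EID, a sum made up mostly of Col3a1 (6694 to 9036 in WT and 3226 to 5345 in Elmo2EID/EID). Of the 7 markers tested, the other 6 were higher in the mutant by their fold change, with a median of 0.47 over the 7. Schwann cell markers (8 genes) summed to 925 to 1517 in WT and 1105 to 1565 in Elmo2EID/EID, with 6 of the 7 tested higher and a median log2 fold change of 1.09. Markers of cycling cells (10 genes) summed to 3200 to 4520 in WT and 2950 to 3175 in the mutant, with 5 of the 10 below every WT sample, against 15.9% of all genes tested. In bulk RNA, fewer cells of a type and less RNA per cell cannot be told apart, and the part of these marker differences in the results below was not tested.

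**Figure D1:**
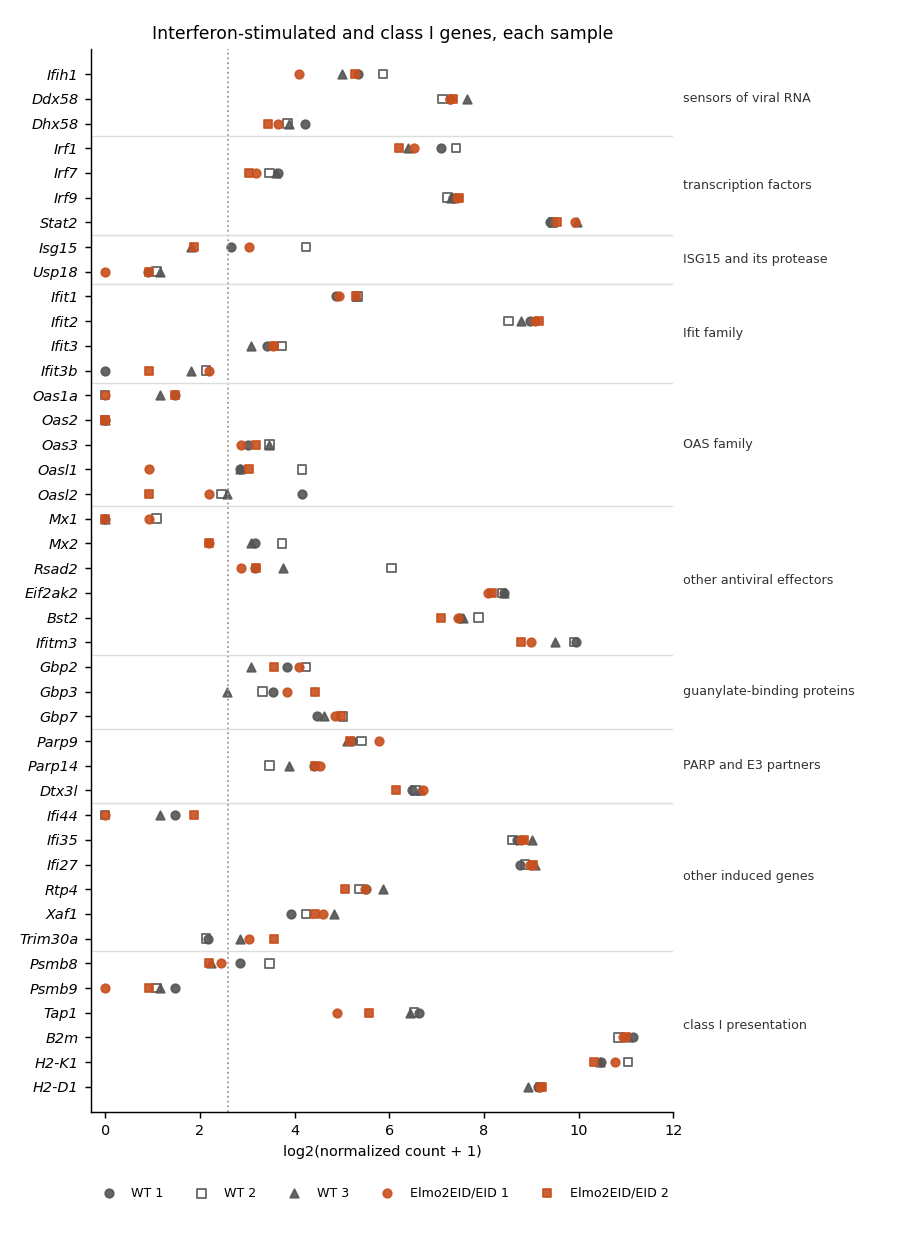
Level of each of the 42 genes in each of the 5 samples, as log2(normalized count + 1) on the horizontal axis, grouped by role; grey symbols are WT replicates 1 to 3, orange symbols Elmo2EID/EID replicates 1 and 2, and the dotted line marks 5 normalized counts. B2m, H2-K1 and Ifitm3 lie far to the right, the untested genes lie left of the line, and for most genes the symbols of the genotypes are mixed.

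Across the 35 tested genes, 1 gene passed at an adjusted p under 0.05, Ifitm3, which was lower in Elmo2EID/EID. Among all genes tested, 2.23% passed in either direction, 1.09% as higher and 1.14% as lower. edgeR's quasi-likelihood test on the recovered reads also called Ifitm3 alone, against 2.25% of all genes, 1.12% higher and 1.13% lower. The DESeq2 Wald test called Ifitm3 and Tap1, both lower, against 5.29% of all genes, 2.27% higher and 3.02% lower. At an unadjusted limma p under 0.05 there were 5 genes, Ifit2 higher and Mx2, Eif2ak2, Ifitm3 and Tap1 lower, where 15.2% of all genes tested were below that value, 6.93% higher and 8.31% lower. No overlap between the groups was seen in 13 of 35 genes, 5 of them higher in Elmo2EID/EID and 8 lower, against a background of 32.6% (16.7% higher and 15.9% lower). The median log2 fold change of the 35 genes was -0.11, with 21 lower and 14 higher, beside 0.01 and 47.9% lower over all genes tested. With genes of a mean under 10 normalized counts left out, 27 members remained, with a median of -0.02, 13 higher and 14 lower.

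**Figure D2:**
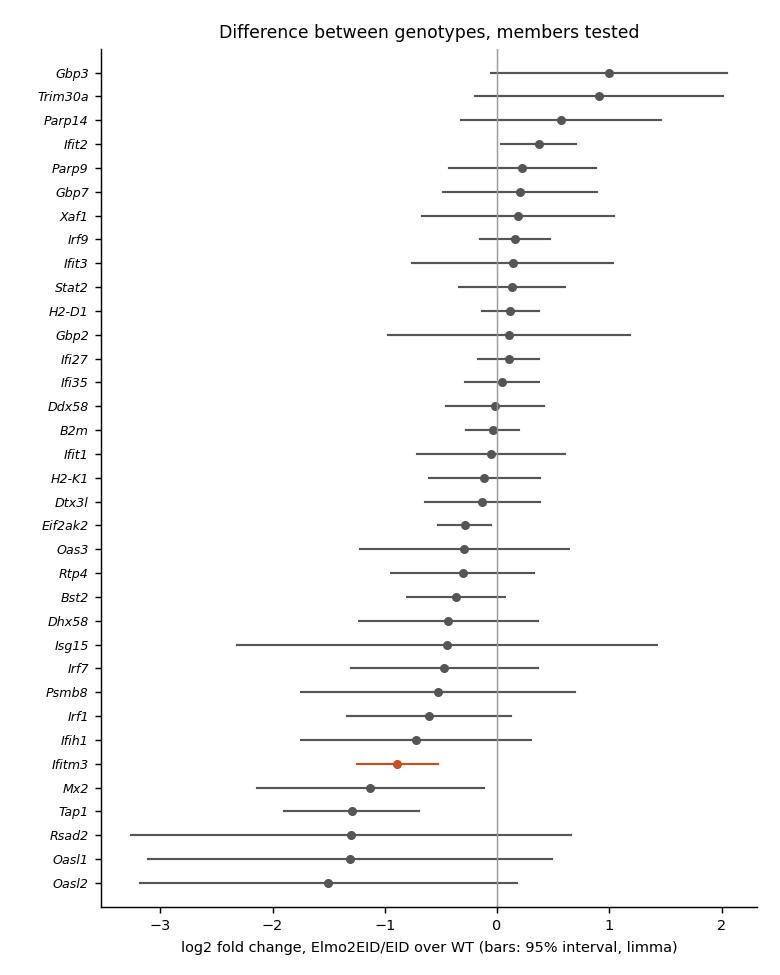
Difference between the genotypes for each of the 35 tested genes, as the log2 fold change of Elmo2EID/EID over WT with its 95% interval from limma; orange marks the gene with an adjusted p under 0.05. Only the intervals of Ifitm3, Tap1, Mx2, Eif2ak2 and Ifit2 leave out 0, and genes of low count such as Rsad2, Oasl1, Oasl2 and Isg15 have the widest intervals.

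Levels between genes were compared as normalized counts per kilobase of exon, averaged over the 5 samples. B2m, the invariant light chain of class I molecules, stood highest at 2379 per kilobase, at percentile 95.8 of the genes tested. It was followed by Ifitm3 at 1062 (percentile 90.2), the class I heavy chain H2-K1 at 540.2 (percentile 81.4), Ifi27 at 335.2, Ifi35 at 255.9 and the second heavy chain H2-D1 at 218.1. Bst2, Stat2 and Ifit2 stood between 201.6 and 123.0, at percentiles 64.0 to 55.6. The remaining 26 tested genes were at or under 61.5 per kilobase, below the median gene tested, down to 0.96 for Oasl2.

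Ifitm3 encodes a small membrane protein that hinders the fusion of viral envelopes with endosomal membranes. The gene (ENSMUSG00000025492) lies on the minus strand of chr7:141009586-141010770 of GRCm38. Its level was 978.1, 951.2 and 723.5 normalized counts in WT replicates 1, 2 and 3, against 509.8 and 439.3 in Elmo2EID/EID replicates 1 and 2. Every Elmo2EID/EID sample lay below every WT sample, and the gap between the groups was smaller than the range among the WT samples. The mean fell from 884.2 ± 139.9 (SD, n = 3) to 474.5 ± 49.8 (SD, n = 2), a ratio of 0.54 and a log2 fold change of -0.89 (SE 0.15, adjusted p = 0.039 with limma, 0.035 with edgeR). The call rested on all but 1 of the samples. Without WT replicate 1 the log2 fold change was -0.81 (limma adjusted p = 0.136), without WT replicate 2 it was -0.83 (0.108), without Elmo2EID/EID replicate 1 it was -0.99 (0.161) and without Elmo2EID/EID replicate 2 it was -0.78 (0.300), while without WT replicate 3 it was -1.03 (0.016). The call was also lost when every gene above 0 was tested (adjusted p = 0.131) and without the mean-variance trend (0.165).

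Ifitm2, a neighbouring family member that is not on the list and was picked out after its values were seen, is similar to Ifitm3 over 363 bases at 82.9% identity. It had 672.4, 627.0 and 617.8 normalized counts in WT, against 485.6 and 427.6 in Elmo2EID/EID. These groups did not overlap either, with a log2 fold change of -0.49 (SE 0.10) that missed the threshold in limma (adjusted p = 0.064) and edgeR (0.063) and passed in DESeq2 (0.006). Ifitm1, at 2.49 to 7.85 normalized counts, was too low to compare. Beside the lower Ifitm3 level, the endothelial marker sum was higher and the cycling sum lower in both Elmo2EID/EID samples, while Col3a1 went the other way from the other tested fibro-adipogenic markers and most Schwann markers were higher by their fold change, as given above, and the part of these cells in the Ifitm3 difference was not tested.

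The other antiviral effectors gave smaller or less certain differences. Eif2ak2, which encodes the double-stranded RNA-dependent kinase PKR, had 340.2, 333.1 and 344.3 normalized counts in WT, against 270.1 and 285.1 in Elmo2EID/EID. The WT samples were close to each other and the Elmo2EID/EID samples below all of them, but the log2 fold change of -0.29 (SE 0.10) did not pass after adjustment (limma adjusted p = 0.240). Bst2 encodes tetherin, which holds budding virions at the cell surface. It had 178.5, 235.6 and 186.5 normalized counts in WT, against 173.5 and 136.3 in Elmo2EID/EID. WT replicate 1 and Elmo2EID/EID replicate 1 were almost level, although the groups did not overlap, and the log2 fold change was -0.37 (SE 0.18, limma adjusted p = 0.409). Mx2, a dynamin-like GTPase, had 7.46 to 12.3 normalized counts in WT and 3.58 to 3.59 in Elmo2EID/EID (log2 fold change -1.13, SE 0.42, limma adjusted p = 0.277), which is near the floor in the mutant. Its relative Mx1 was at or under 3 reads in every sample, and the pair share 920 bases at 94.8% identity, so that reads from either may have been lost to the count of unique alignments.

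Rsad2, which encodes the antiviral radical SAM enzyme viperin, differed more among WT samples than between genotypes. It had 7.95, 65.1 and 12.4 normalized counts in WT, against 6.26 and 8.07 in Elmo2EID/EID. WT replicate 2 was 5.23 times the next sample, and the other 4 samples overlapped between the genotypes. The log2 fold change was -1.30 (SE 0.82, limma adjusted p = 0.524) with all samples and -0.43 without WT replicate 2.

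**Figure D3:**
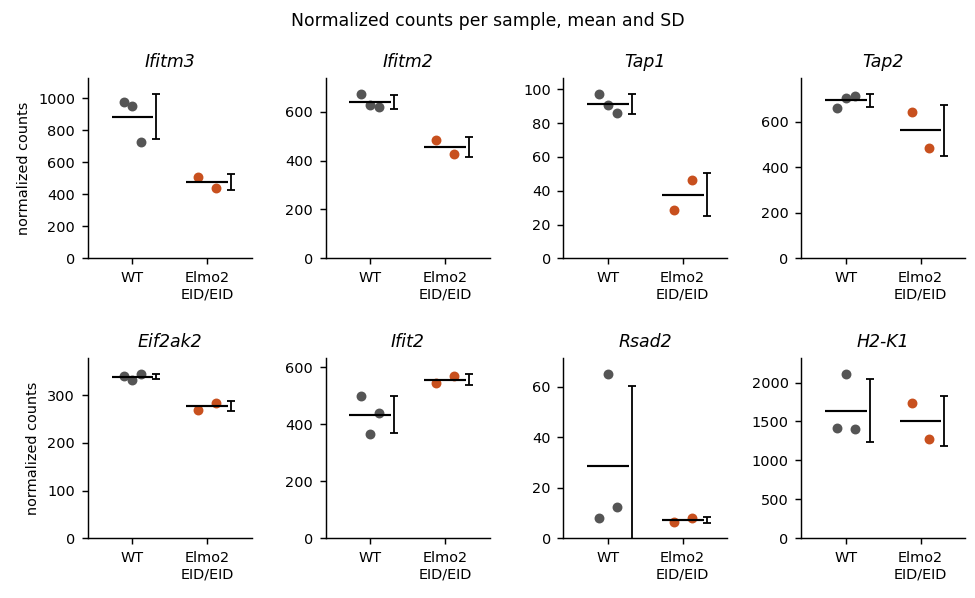
Normalized counts in each sample (points), with the mean (line) and SD (bar) of WT (grey, n = 3) and Elmo2EID/EID (orange, n = 2), for 8 genes on axes that start at 0; the lower end of the SD bar of Rsad2 in WT lies below 0 and is not drawn. The groups are separate for Ifitm3, Ifitm2, Tap1, Tap2, Eif2ak2 and Ifit2 and overlap for Rsad2 and H2-K1.

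Class I presentation was measured along its chain, from the proteasome through the peptide transporter to the class I molecule. Psmb8 and Psmb9 encode inducible catalytic subunits of the immunoproteasome, which take the places of the standard subunits encoded by Psmb5 and Psmb6. Psmb8 had 6.18, 10.1 and 3.73 normalized counts in WT, against 4.47 and 3.59 in Elmo2EID/EID, and these groups overlapped. Psmb9 had 1.77, 1.12 and 1.24 in WT, against 0 and 0.90 in Elmo2EID/EID, below the floor everywhere. Their standard counterparts, looked up after these values were seen, stood at 4216 (Psmb5) and 3235 (Psmb6) normalized counts per kilobase averaged over the samples, against 1.66 for Psmb8 and 0.27 for Psmb9. The third inducible subunit, Psmb10, did not share this low level, at 272.9 per kilobase beside 2397 for its counterpart Psmb7. Of these standard subunits Psmb5 was lower in Elmo2EID/EID, at 4108, 4449 and 4217 normalized counts in WT and 3060 and 3118 in the mutant (log2 fold change -0.46, SE 0.06, limma adjusted p = 0.019), and Psmb6 (-0.10) and Psmb7 (-0.06) did not pass.

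Tap1 encodes one chain of the transporter that carries peptides into the endoplasmic reticulum. The gene (ENSMUSG00000037321) lies on the plus strand of chr17:34187553-34197225. It had 97.2, 90.9 and 85.8 normalized counts in WT, against 28.6 and 46.6 in Elmo2EID/EID. The WT samples were close together, and both Elmo2EID/EID samples lay far below them, although these 2 differed from each other by more than the WT samples did. The mean went from 91.3 ± 5.72 (SD, n = 3) to 37.6 ± 12.7 (SD, n = 2), a ratio of 0.41. The log2 fold change of -1.30 (SE 0.25) missed the threshold in limma (adjusted p = 0.059) and edgeR (0.063) and passed in DESeq2 (0.005) and in limma after quantile normalization (0.042). Without Elmo2EID/EID replicate 1, the lower sample, it was -0.95 (limma adjusted p = 0.204), and without replicate 2 it was -1.64 (0.0998).

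The partners of Tap1 in peptide loading are not on the list and were read beside it. Tap2, the other chain of the transporter, had 661.8, 705.5 and 713.5 normalized counts in WT, against 643.0 and 484.1 in Elmo2EID/EID (log2 fold change -0.31, SE 0.13, limma adjusted p = 0.326). Tapbp, which encodes the bridging protein tapasin, had 661.8, 613.6 and 660.1 in WT, against 564.3 and 508.3 in Elmo2EID/EID (-0.27, SE 0.09, adjusted p = 0.236). Neither passed, and the differences were smaller than that of Tap1, which was also present at a much lower level per length (12.7 normalized counts per kilobase against 169.7 for Tap2 and 165.8 for Tapbp).

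For the class I molecule itself, the genotypes differed by less than the spread between the samples. B2m had 2260, 1834 and 2118 normalized counts in WT, against 1960 and 2058 in Elmo2EID/EID. Both Elmo2EID/EID samples fell inside the WT range, and the log2 fold change was -0.04 with a 95% interval of -0.27 to 0.20 (limma adjusted p = 0.896). H2-K1 had 1412, 2110 and 1401 normalized counts in WT, against 1734 and 1279 in Elmo2EID/EID. WT replicate 2 was the highest and Elmo2EID/EID replicate 2 the lowest, and the interval of the log2 fold change of -0.11 ran from -0.61 to 0.39. H2-D1 had 567.2, 581.0 and 484.8 in WT, against 580.4 and 598.8 in Elmo2EID/EID, with a log2 fold change of 0.12 and an interval of -0.14 to 0.37. The heavy chains share 1513 bases at 88.2% identity, so some of their reads may have failed to align uniquely.

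**Figure D4:**
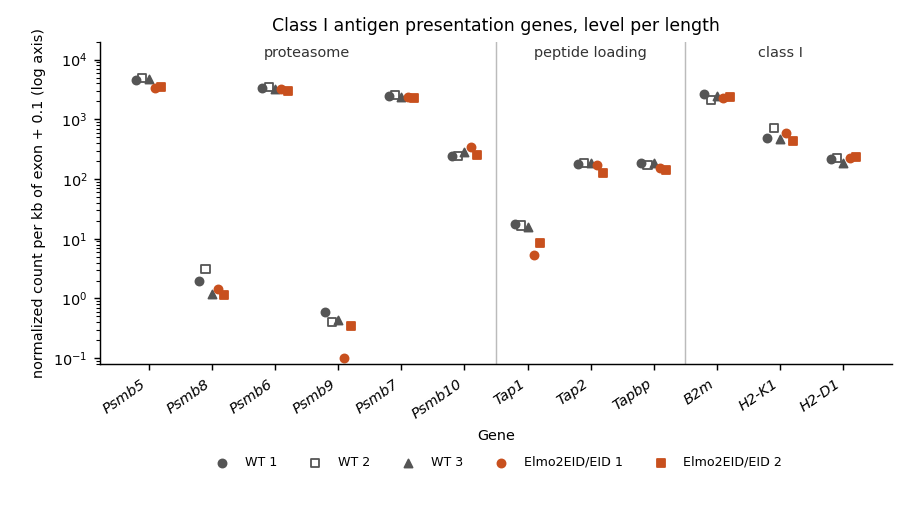
Normalized counts per kilobase of exon in each sample, plus 0.1 so that 0 can be drawn, on a log axis, for proteasome subunits (standard and inducible side by side), peptide loading genes and class I chains; grey symbols are WT and orange symbols Elmo2EID/EID. Psmb8 and Psmb9 lie at the bottom of the axis and Psmb5 and Psmb6 near the top, Tap1 lies under Tap2 in every sample, and the class I chains of the genotypes overlap.

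The transcription factors of the response were present, and none of them passed the test. Stat2 had 667.1, 704.4 and 993.2 normalized counts in WT, against 975.7 and 741.4 in Elmo2EID/EID. WT replicate 3 and Elmo2EID/EID replicate 1 were high and the other 3 samples low, so the groups overlapped (log2 fold change 0.13, SE 0.20). Irf9, its DNA-binding partner, varied little, at 161.7, 149.2 and 156.6 in WT, against 170.8 and 177.5 in Elmo2EID/EID. The Elmo2EID/EID samples were both above WT, with a log2 fold change of 0.16 (SE 0.13, limma adjusted p = 0.630). Irf1, which drives class I and other type II interferon targets, had 136.1, 168.3 and 83.3 in WT, against 90.3 and 72.6 in Elmo2EID/EID. WT replicates 1 and 2 were high and WT replicate 3 was within the Elmo2EID/EID range, and the log2 fold change was -0.61 (SE 0.31, limma adjusted p = 0.414). Irf7, which amplifies type I interferon production, was low at 7.17 to 11.5 normalized counts in all samples. For Irf7 both Elmo2EID/EID samples lay below every WT sample, with a log2 fold change of -0.47 (limma adjusted p = 0.593).

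The cytoplasmic sensors of viral RNA did not pass either. Ddx58, which encodes RIG-I, had 138.0 to 197.6 normalized counts in WT and 155.6 to 162.3 in Elmo2EID/EID. Ifih1, which encodes MDA5, had 31.1 to 57.2 in WT and 16.1 to 37.7 in Elmo2EID/EID, with replicate 1 of the mutant the lowest of all samples. Dhx58, which encodes their regulator LGP2, had 13.5 to 17.7 in WT and 9.86 to 11.6 in Elmo2EID/EID. All 3 log2 fold changes were below 0 (-0.02, -0.72 and -0.43), with limma adjusted p-values of 0.972, 0.494 and 0.609.

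Members of the Ifit family, which bind foreign RNA ends and block their translation, differed widely in level. Ifit2 stood highest, at 498.3, 365.7 and 437.6 normalized counts in WT, against 542.9 and 570.2 in Elmo2EID/EID. Both Elmo2EID/EID samples lay above WT, and the log2 fold change of 0.37 (SE 0.14) was the highest among members whose mean reached 50 normalized counts, but did not pass (limma adjusted p = 0.282). Ifit1 was at 28.3 to 39.3 and Ifit3 at 7.46 to 12.3 normalized counts over all samples, with the genotypes mixed. Ifit3b had at most 3.58, and it matches Ifit3 at 97.8% identity over 1700 bases, so the split of reads between the 2 is uncertain. The level of Ifit2 per kilobase was 123.0, beside 13.1 for Ifit1 and 5.85 for Ifit3.

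Genes of the OAS family make or resemble the oligoadenylate synthetases that switch on RNase L, and none exceeded 16.8 normalized counts in any sample. Oas3 had 6.26 to 10.1 normalized counts over all samples. Oasl1 had 6.18, 16.8 and 6.22 in WT, against 0.89 and 7.17 in Elmo2EID/EID, so that WT replicate 2 stood high and Elmo2EID/EID replicate 1 held a single read. Oasl2 had 16.8, 4.49 and 4.97 in WT, against 3.58 and 0.90 in Elmo2EID/EID, with WT replicate 1 the high sample. Their log2 fold changes of -1.31 and -1.50 were the lowest of the list and had standard errors of 0.76 and 0.71, with limma adjusted p-values of 0.479 and 0.383. Oas1a had at most 1.79 normalized counts and is 97.5% identical to Oas1g over 1860 bases, which had no read in any sample.

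Isg15 encodes a ubiquitin-like protein that is joined to other proteins during the response. It had 5.30, 17.9 and 2.49 normalized counts in WT, against 7.15 and 2.69 in Elmo2EID/EID. WT replicate 2 was again the highest sample, and the genotypes overlapped (log2 fold change -0.44, SE 0.79, limma adjusted p = 0.847). Without that sample the log2 fold change was 0.23. Usp18, the protease that removes ISG15, had at most 1.24 normalized counts.

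The guanylate-binding proteins, GTPases that attack the membranes around pathogens, did not pass. Gbp3 had 4.97 to 10.6 normalized counts in WT and 13.4 to 20.6 in Elmo2EID/EID, with no overlap (log2 fold change 1.00, SE 0.44, limma adjusted p = 0.353). Gbp2 (7.46 to 17.9 normalized counts over all samples) and Gbp7 (21.2 to 31.4) overlapped between genotypes. The log2 fold change of Gbp2 was 0.11, and it was -0.21 without WT replicate 3 and -0.16 without Elmo2EID/EID replicate 1. Parp9 and Dtx3l encode an ADP-ribosyltransferase and its E3 ligase partner. Parp9 had 33.6 to 53.7 normalized counts over all samples, while Dtx3l had 88.4, 93.1 and 99.4 in WT, against 103.7 and 69.9 in Elmo2EID/EID. The mutant samples held the highest and the lowest Dtx3l value, and its log2 fold change was -0.13 (SE 0.22). Parp14, a related ADP-ribosyltransferase, had 10.1 to 20.3 in WT and 20.6 to 22.4 in Elmo2EID/EID (0.57, SE 0.37, limma adjusted p = 0.541).

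Among the other induced genes, Ifi35 and Ifi27 stood highest, and neither passed the test. Ifi35, an adaptor of innate signalling, had 415.3, 385.9 and 513.4 normalized counts in WT, against 437.3 and 458.1 in Elmo2EID/EID. Ifi27, a mitochondrial protein gene, had 434.7, 464.4 and 535.8 in WT, against 498.1 and 525.3 in Elmo2EID/EID. For both genes the mutant samples lay inside the WT range, and the 95% intervals of the log2 fold changes were -0.29 to 0.37 and -0.17 to 0.38. Rtp4 (32.3 to 57.2 normalized counts over all samples), Xaf1 (14.1 to 27.3) and Trim30a (3.37 to 10.8) also did not pass. Both Elmo2EID/EID samples lay above WT for Trim30a (log2 fold change 0.91, SE 0.46, limma adjusted p = 0.420), at a level close to the floor and with a near relative, Trim30d, at 89.9% identity over 1721 bases. Ifi44 was at or under 3 reads.

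The members differed in which of the 5 samples was highest. WT replicate 2 was the highest of the 5 samples for 14 of the 35 tested genes (40.0%), against 20.5% of all genes tested, and for 9 of the 27 whose mean reached 10 normalized counts (33.3% against 20.1%). In 4 genes a single sample was more than 2 times every other one. These were Rsad2, Isg15 and Oasl1, each in WT replicate 2, and Oasl2 in WT replicate 1, which made 11.4% of the tested members against 3.78% of all genes tested. Isg15, Oasl1 and Oasl2 had means under 10 normalized counts, with peaks of 17.9, 16.8 and 16.8. Oasl2 reached the minimum for testing in WT replicate 1 alone. The background share covers genes of every level, and no share was computed at a mean of at least 10. WT replicate 2 also had the lowest endothelial marker sum (695), and it was the lowest sample for 11 of 12 endothelial, 5 of 7 fibro-adipogenic and 5 of 7 Schwann markers tested, against 22.2% of all genes tested. Whether this has a part in its level of Rsad2, Isg15 and Oasl1 was not tested. Other genes took another order: Ifi35, Ifi27, Stat2, Ddx58, Rtp4 and Xaf1 were highest in WT replicate 3, and Ifit2, Gbp3 and Trim30a in Elmo2EID/EID replicate 2. Among the 15 members whose mean reached 50 normalized counts, the median ratio of the highest to the lowest WT sample was 1.32, compared with 1.14 over 12298 such genes, while in Elmo2EID/EID it was 1.06 compared with 1.09. With 5 samples no correlation between members was computed.

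**Figure D5:**
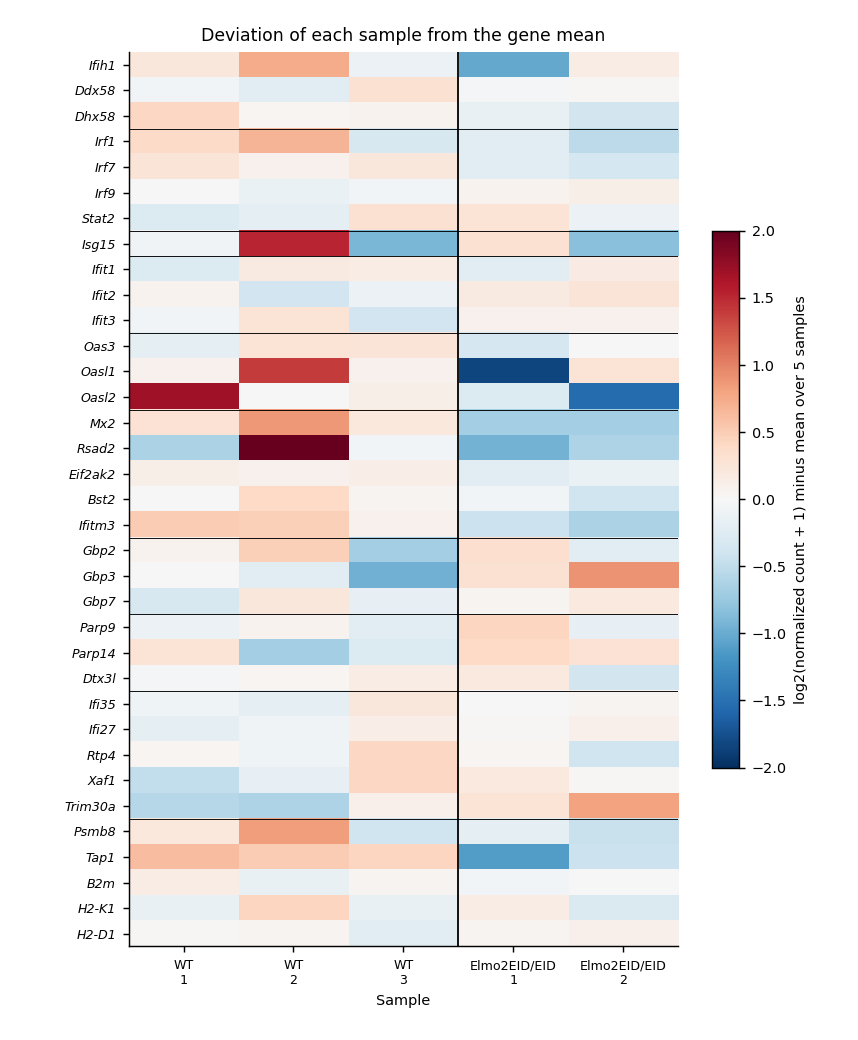
Deviation of each sample (columns) from the mean of the 5 samples for each of the 35 tested genes (rows, ordered by role), in log2(normalized count + 1), red above and blue below the mean, with colours held at 2 and -2 beyond that range; the vertical line divides WT from Elmo2EID/EID. Rsad2, Isg15 and Oasl1 are dark red in WT replicate 2, Oasl2 in WT replicate 1, and Ifitm3 and Tap1 are red in all WT samples and blue in both Elmo2EID/EID samples.

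The remainder of the pathway was read from 7 lists holding 126 other genes. Of these, 96 were tested. In limma and in edgeR 0 passed, and DESeq2 called 2, Ifitm2 and Pml, both lower, against 5.29% of all genes. An unadjusted limma p under 0.05 was found for 15 of the 96 (3 higher and 12 lower), against 15.2% of all genes (6.93% higher and 8.31% lower). The filter was passed through WT alone by 9 of the 96, among them H2-DMb1 on the lower side, and through Elmo2EID/EID alone by 2, among them Aim2 on the higher side. The median log2 fold change of the 96 was -0.02, with 40 higher and 56 lower. Of the 7 interferon genes looked up, Ifnb1, Ifna4, Ifnk, Ifng, Ifnl2 and Ifnl3 had no read in any sample, and Ifne had 1 read in WT replicate 1. Other interferon genes were not looked up. A count of 0 in these libraries allows up to 3 reads, for counting error only.

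The 11 receptor and kinase genes had log2 fold changes of -0.12 to 0.71, the highest in Ifnlr1, which was at 2.24 to 7.17 normalized counts over all samples. For Ifngr1 and Tyk2 (0.08 and 0.07), 2 of the 11, both Elmo2EID/EID samples lay above WT, a share near the 16.7% of all genes tested. Of the 11 genes none passed or had an unadjusted limma p under 0.05, and none was called by edgeR or DESeq2. The most abundant, Stat3 and Jak1, had 5192 to 5717 and 4000 to 4199 normalized counts in WT and 4896 to 5240 and 4072 to 4185 in Elmo2EID/EID. Ifnar1, a chain of the type I receptor, had 1364 to 1450 in WT and 1403 to 1456 in Elmo2EID/EID (log2 fold change 0.03, 95% interval -0.13 to 0.19). Among 13 tested sensors and adaptors, Tbk1 (1725 to 1847 in WT, 1937 to 1968 in Elmo2EID/EID) and Mavs (1547 to 1768 and 1493 to 1762) were the highest, and among 9 feedback inhibitors Pias1 (1517 to 1586 and 1456 to 1565) and Ptpn2 (1098 to 1205 and 940.4 to 1141). None of these 4 passed.

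Among 43 further interferon-stimulated genes tested, the most abundant were Trim25 (2655 to 3181 normalized counts in WT, 2505 to 2731 in Elmo2EID/EID) and Tor3a (2705 to 2917 and 2285 to 2636). Of the 43, 30 were lower and 13 higher, with a median log2 fold change of -0.15, beside 47.9% lower and 0.01 over all genes tested. The filter was passed through WT alone by 4 of the 43 and through Elmo2EID/EID alone by 1. Pml, which organises nuclear bodies, had 804.9, 765.0 and 815.5 in WT, against 623.3 and 577.3 in Elmo2EID/EID (-0.41, SE 0.08, limma adjusted p = 0.067, DESeq2 adjusted p = 0.010). Of 15 other class I genes tested, which include the chaperones Canx (18187 to 21286 in WT, 18771 to 21233 in Elmo2EID/EID) and Calr (17125 to 21039 and 19121 to 21528), 9 were higher and 6 lower.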

How the data were processed

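Poly-A RNA from 5 samples of mouse myoblasts was sequenced. Per the labels and the study's methods, the authors aligned untrimmed read pairs to GRCm38 with STAR (2.5.1b), counted uniquely aligned reverse-strand reads per gene with featureCounts (1.4.6) on an ENSEMBL annotation stated as release 67, and divided them by DESeq2 (1.34.0) size factors. The deposited signal is this count divided by the size factor, in 1 table of 54232 genes. Every positive value (100.0%) was a whole number of reads within 0.01 of a read, so reads were recovered and used for edgeR and DESeq2. Reads that align to several near-identical genes were not counted, which lowers such genes.

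The 42 members and the other lists were chosen with earlier results of these data known. Genes that reached 5 normalized counts in any sample were tested with limma (3.58.1; lmFit, then eBayes with the variance trended on the mean, two-sided, no block) on log2(normalized count + 1), with Benjamini-Hochberg adjustment over 18156 genes and a threshold of 0.05. Alternatives were edgeR (4.0.16, quasi-likelihood, TMM), DESeq2 (1.42.0, Wald), pseudocounts of 0.5 and 5, other filters, quantile normalization, equal totals, no trend, a block for the replicate number, and each sample left out. Scripts were tested on simulated data. Values in every sample are given for members that passed in any of the 3 tools, the 10 with the largest absolute log2 fold change among those with a mean of at least 50, the 6 with the highest mean per kilobase and the class I members. Of the 7 other pathway lists, the genes that passed or otherwise the 2 with the highest mean are named, and genes named beyond this were chosen after their values were seen. Identifiers were matched to GENCODE M21 (54165 of 54232), near copies found with blastn (2.17.0), and promoters read from RefSeq (GRCm38.p6). R 4.3.3 and Python 3.11.15 were used. Pairs of samples within a group differed by more than sampling noise (chi-square per degree of freedom 26.6 to 37.8). Pairs across the groups ran from 24.1 to 59.7. The lowest of all pairs was WT replicate 3 with Elmo2EID/EID replicate 1, below the 37.8 between the Elmo2EID/EID replicates.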

Additional observations from a re-analysis of the deposited data

How the results depend on the processing

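The count of members called moved between 0 and 2. It was 2 (Ifitm3 and Tap1) with DESeq2 and with quantile normalization, 0 when every gene above 0 was tested and 0 without the trend, and 0 to 1 on leaving out each sample in turn. For 23 of the 35 members the sign was the same in every alternative that tested them (13 to 15 of 15), and the other 12, among them B2m, H2-K1, Ddx58, Ifit1, Ifit3 and Isg15, changed sign in 1 to 4 of them without passing the threshold. Over all genes, 404 calls (197 higher and 207 lower) became 961 with DESeq2 (412 and 549), 155 when every gene above 0 was tested (98 and 57), 144 without the trend (97 and 47), and 54 to 349 on leaving out each sample. The median log2 fold change of the members was -0.021 with a mean of at least 10, and -0.051 to -0.19 on leaving out each sample. The count of members without overlap was 14 to 21 on such leaving out, where smaller groups overlap less by construction. Other pathway genes called were 2 with DESeq2. The causes of the other changes were not tested.

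With a replicate block, 224 genes were called and the median of the members was -0.16. Same-numbered samples did not deviate together (correlation -0.24 over 13769 genes with a mean of at least 20), and the labels tie the numbers to nothing. With the block, Ifitm3 remained the member called. Replicate number 3 exists only in WT, so the block takes up that sample. The Ifitm3 log2 fold change of -1.03 was therefore the same as without WT replicate 3. A lone sample left in Elmo2EID/EID was assumed to vary like WT. Precision at low levels is limited by reads, since 3 reads are 2.65 to 3.73 normalized counts.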

Other observations

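Most genes of class II antigen presentation were near the floor of 3 reads. H2-Aa had no read in any sample, and Cd74, the invariant chain, was at or under 3 reads in every sample. H2-Ab1 (2.49 to 6.73 normalized counts in WT, 0.90 to 1.79 in Elmo2EID/EID) and the class II activator Ciita (1.24 to 5.61 and 2.69 to 4.47) were close to it. The highest were H2-DMa, at 150.2, 109.9 and 126.8 normalized counts in WT and 110.9 and 143.4 in Elmo2EID/EID, with the genotypes mixed, and H2-Eb1, at 5.61 to 8.84 in WT and 3.58 to 11.6 in Elmo2EID/EID. Of the 5 class II genes tested, limma, edgeR and DESeq2 called 0, and 1 (H2-DMb1, lower) had an unadjusted limma p under 0.05, against 15.2% of all genes tested (8.31% lower). H2-Ab1, H2-DMb1 and Ciita passed the filter on low values through WT alone, which favours a lower value in Elmo2EID/EID. DESeq2 gave no adjusted p for H2-Ab1, H2-DMb1 and Ciita.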
